A study of Mus musculus with 16 samples.

Results

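MYC and the MAX network are described here through 9 genes (Myc, Max, Mxd1, Mxd3, Mxd4, Mxi1, Mnt, Mga and Mlx), found by symbol among the 24028 genes of the count table. All 9 passed the filter on low counts, as did 17414 genes in all. RNA came from CD8 T cells sorted from tumours that the mouse mammary adenocarcinoma line TS/A formed in BALB/c mice after injection into the mammary pad. Mice received vehicle or entinostat (labelled ENT), which blocks the class I histone deacetylases (HDACs), at 20 mg/kg daily from day 7 after injection. The 4 groups were vehicle at day 10, entinostat at day 10 (3 days after dosing began), vehicle at day 17 and entinostat at day 17 (10 days after it began), with 4 libraries each. The labels give no genotype or age, and the sort kept live CD45.2+ CD8+ CD4- cells. Whether each library was made from a mouse of its own is not said, so the p-values cover the spread seen between libraries, some of which may be technical.

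MAX is the common partner of this network. MYC binds DNA as a dimer with MAX at E-boxes, short sites whose best known form reads CACGTG, and activates genes of growth, ribosome production and metabolism. The MXD proteins (Mxd1, Mxi1, Mxd3 and Mxd4), MNT and MGA also pair with MAX at such sites. MXD proteins and MNT bring the SIN3 corepressor with its class I HDACs, the enzymes that entinostat inhibits, and so oppose MYC. MGA works in a Polycomb complex (PRC1.6), and MLX pairs with MNT and some MXD proteins and with the glucose-responsive factors MondoA and ChREBP. In T cells MYC is known for driving growth after antigen recognition, and Mxd1 is known more widely for rising as cells stop dividing and differentiate.

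Total counts ran from 554593 to 6975904 per library, and the smallest library was entinostat day 17 replicate 3. Cd8a, part of the sorted CD8 receptor, was at 309 to 591 CPM (counts scaled to a common library total, with TMM factors) in the 16 libraries, and Cd4 was at 5.21 to 54.8 CPM. Markers of plasmacytoid dendritic cells, 7 genes, summed to 927 to 1957 CPM at day 10 in vehicle libraries and to 276 to 547 CPM in entinostat libraries. Their day 17 sums were 1729 to 2159 CPM and 250 to 354 CPM in the same order, and all 7 fell with entinostat at both days. None of the markers was at 0 in all libraries. Of the other marker lists, entinostat changed 1 of 3 CD4 T cell genes at day 10 and 2 of 3 at day 17, each downward. Of 7 CD8 T cell genes edgeR called none at either day, with 1 lower at day 10 and 6 higher at day 17 at an unadjusted p under 0.05. DESeq2 called none at day 10 and all 7 higher at day 17, and limma-voom called 1 lower at day 10 and none at day 17. It raised 1 and lowered 2 of 6 tested myeloid genes at day 10 and lowered 2 at day 17, and it raised 1 of 3 tested natural killer genes at each day. It raised 1 and lowered 1 of 4 B cell genes at day 10 and lowered 1 at day 17. It lowered 1 of 4 tested tumour epithelium genes at each day and 1 of 5 stromal and endothelial genes at day 17. Their part in the results on the network was not tested. In bulk samples, fewer cells of a type and less RNA per cell cannot be told apart.

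Of the members, 4 carry CACGTG near an annotated start site. Of these, edgeR called Mnt and Mlx lower with entinostat at day 17 and did not call Max or Mxd4. The motif was searched in RefSeq promoter windows of 300 bases, from 250 before to 50 after the start, on build GRCm38.p6. CACGTG is its own reverse complement, so one search covers both strands. Of the 9 members, 8 had windows, and Max, Mxd4, Mnt and Mlx held the motif, while no window of Mxd1, Mxd3, Mxi1 or Mga did. Across all 32851 windows, 7.15% held it, and of 27025 genes with a window, 8.09% held it in any window. The match is a description of the letters and not a site of binding. These stretches of 30 bases show each match in capitals, 5′ to 3′ on the gene's own strand.
Max, chr12:76962234-76962263, minus strand: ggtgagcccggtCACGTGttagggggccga
Mxd4, chr5:34187912-34187941, minus strand: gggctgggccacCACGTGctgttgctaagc
Mnt, chr11:74830789-74830818, plus strand: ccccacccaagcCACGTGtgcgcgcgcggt
Mlx, chr11:101087238-101087267, plus strand: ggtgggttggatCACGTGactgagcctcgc
The first base of the match lay 3 bases before the start that the window uses in Max, 40 in Mlx, 123 in Mnt and 219 in Mxd4. These starts are not always the outer ends of the genes, and the stretches of Max and Mlx lie inside the gene bounds. The 30 bases that follow the Max start were found in no GENCODE M21 transcript of Max. For contrast, the 150 bases that open the Mxd1 window are shown, since Mxd1 had the clearest change of the network and no match.
Mxd1, chr6:86669260-86669409, minus strand: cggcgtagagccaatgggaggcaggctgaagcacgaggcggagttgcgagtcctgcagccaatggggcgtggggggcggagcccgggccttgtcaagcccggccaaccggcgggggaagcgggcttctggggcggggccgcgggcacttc

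Levels between genes were compared as CPM per kilobase of annotated exon. Mxd1 was first in all 4 groups and Myc was next. Over the 16 libraries Mxd1 averaged 97.0 CPM per kilobase, Myc 61.9, Mlx 43.8 and Max 24.4. The remaining members averaged 12.2 for Mga, 12.1 for Mxi1, 9.17 for Mnt, 6.89 for Mxd4 and 4.51 for Mxd3, again in CPM per kilobase. At day 10 the libraries of Mxd1 lay above those of Myc without overlap in both treatments, and at day 17 the libraries of the 2 genes overlapped in both. Myc overlapped Mlx in every group except entinostat at day 17, and Max overlapped Mlx in none except entinostat at day 10. Mga, Mxi1 and Mnt overlapped their neighbours in most groups and cannot be ranked. Mxd3 averaged 5.99 CPM (1 to 88 counts per library), under 12.7 CPM, the 99th percentile of the genes of olfactory and vomeronasal receptors (silent in T cells as far as is known), which was used as the background level.

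**Figure D1:**
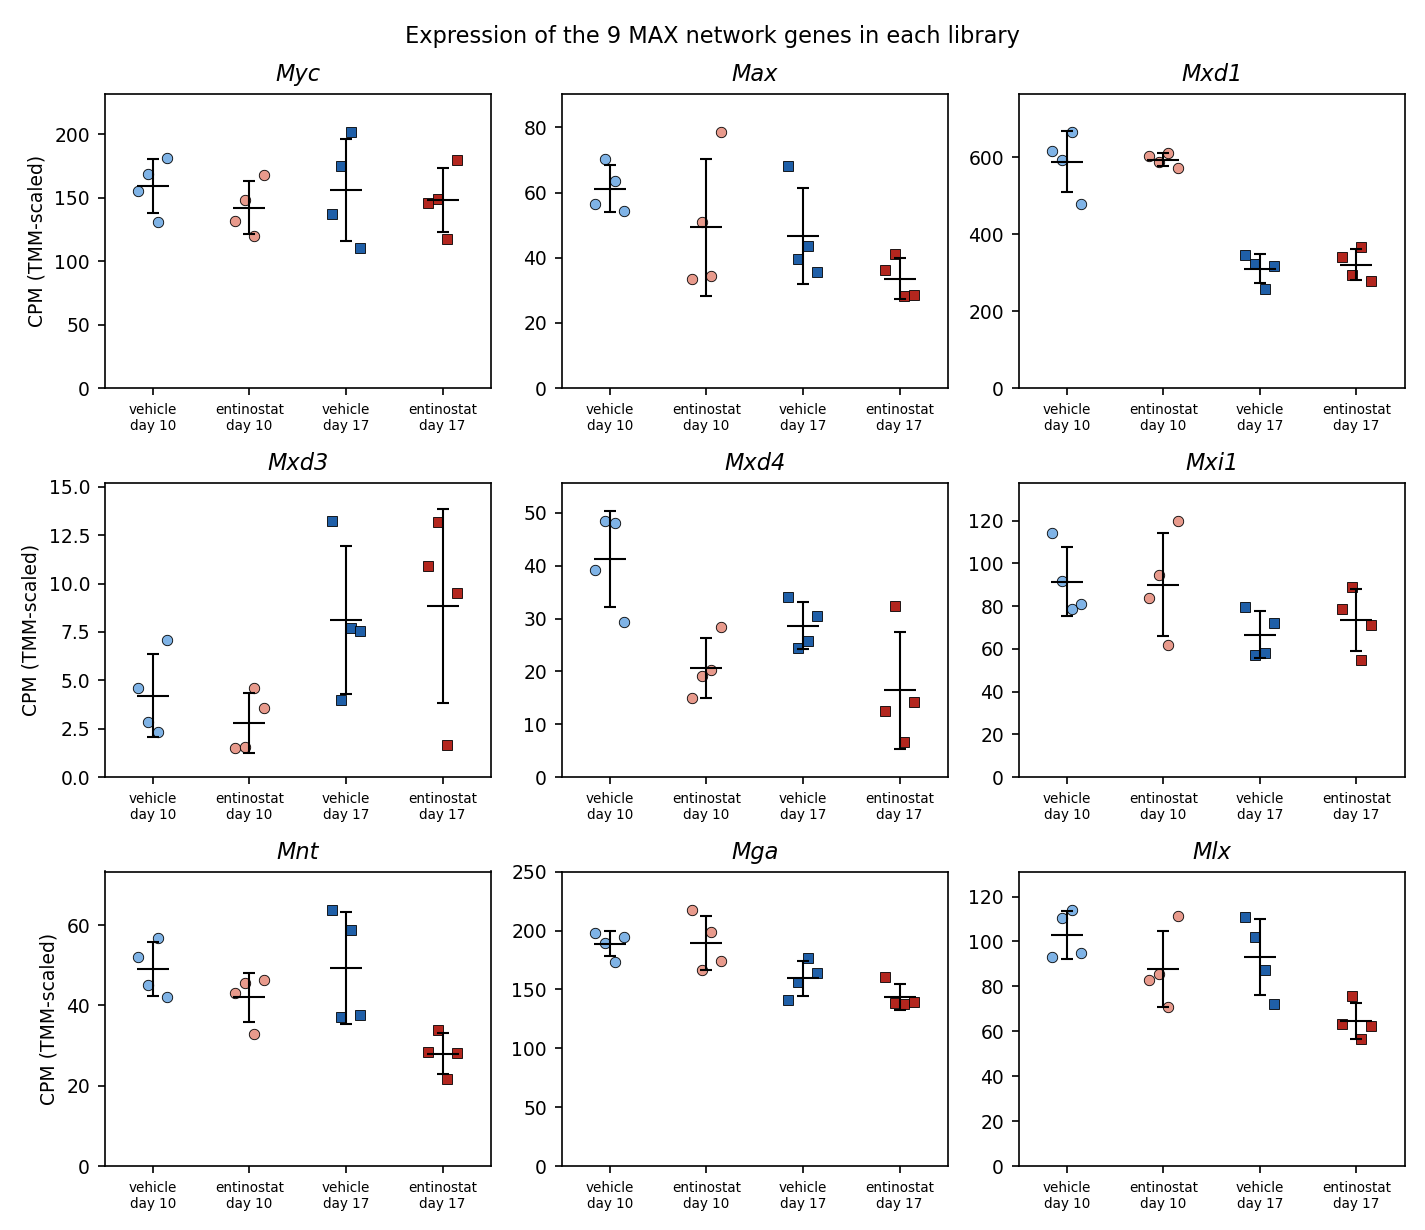
Each panel plots the CPM of 1 gene (vertical axis from 0, TMM-scaled) in the 16 libraries, with 4 points a group and bars for the mean and SD. Mxd1 lies between 478 and 665 in the day 10 libraries and between 256 and 367 in the day 17 libraries, and Myc lies between 110 and 202 throughout.

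Mxd1, the most abundant antagonist, fell from day 10 to day 17 in both treatments. It is on chromosome 6 (GRCm38 86647044 to 86669234, minus strand). With vehicle it was at 616, 592, 665 and 478 CPM at day 10 and at 345, 321, 256 and 317 CPM at day 17. With entinostat it was at 602, 586, 611 and 572 CPM at day 10 and at 341, 295, 367 and 279 CPM at day 17. Every day 17 library lay below every day 10 library, whichever the treatment. The vehicle change was -0.92 ± 0.12 on the log2 scale (SE, 4 libraries a group, edgeR quasi-likelihood test, adjusted p = 0.00103), to 0.527 times the day 10 level. The entinostat change was -0.90 ± 0.12 (edgeR adjusted p = 7.72e-05), to 0.537 times. Other cells' markers moved with time too, and their part was not tested. With vehicle, 2 of 5 stromal and endothelial genes rose (median log2 change 2.94), and their summed level went from a median of 145 CPM (127 to 388) to 488 CPM (252 to 837). With entinostat, 1 of those 5 fell, and 3 of the 7 plasmacytoid genes fell (median -0.55). Across all genes tested, 3.63% fell with time in vehicle and 10.5% in entinostat, and 1.89% and 3.26% rose. The split of those calls depends on scaling: 34.2% of the vehicle calls were higher, against 59.4% with library size alone, and 23.7% of the entinostat calls were higher, against 43.3% with library size alone and 53.1% with cyclic loess.

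Entinostat did not change Mxd1 past the threshold at either day. The log2 difference was 0.01 ± 0.11 at day 10 (95% interval -0.23 to 0.25, edgeR adjusted p = 0.947) and 0.04 ± 0.12 at day 17 (-0.21 to 0.28, edgeR adjusted p = 0.849). The difference between the days' drug effects was 0.03 ± 0.16 (-0.32 to 0.37, edgeR adjusted p = 0.963). The fall with time was called in all 28 alternatives in each treatment, and its size ran from -0.56 to -1.03 with vehicle and from -0.73 to -0.97 with entinostat. The smallest vehicle value came with cyclic loess scaling. Mki67, a marker of cycling cells, moved the other way. Its mean went from 72.9 ± 20.0 to 140 ± 25.5 CPM with vehicle (SD, n = 4; log2 change 0.95 ± 0.21, edgeR adjusted p = 0.0160) and from 77.5 ± 10.4 to 209 ± 61.3 CPM with entinostat (1.47 ± 0.21, edgeR adjusted p = 0.000177).

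Myc passed edgeR's threshold in no comparison. It is on chromosome 15 (GRCm38 61985341 to 61990361, plus strand), and no window was matched for it. At day 10 it was at 156, 169, 131 and 181 CPM with vehicle and at 132, 149, 120 and 168 CPM with entinostat. At day 17 it was at 137, 175, 202 and 110 CPM with vehicle and at 146, 149, 118 and 180 CPM with entinostat. Each group overlapped every other. The drug difference was -0.16 ± 0.17 at day 10 (95% interval -0.51 to 0.19, edgeR adjusted p = 0.507) and -0.05 ± 0.17 at day 17 (-0.41 to 0.30, edgeR adjusted p = 0.851). The change with time was -0.03 ± 0.17 with vehicle (-0.38 to 0.32, edgeR adjusted p = 0.933) and 0.08 ± 0.17 with entinostat (-0.28 to 0.44, edgeR adjusted p = 0.823). No call was made in any alternative run, and the intervals hold changes of up to their bounds. The sign of such small values depended on the setting, and the day 17 drug difference was above 0 in 10 of 29 alternatives. Among these were other scalings, stricter filters, the total count as a covariate and runs without a single library.

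The balance of Myc against its antagonists, the log2 ratio of Myc CPM to the summed CPM of Mxd1, Mxd3, Mxd4, Mxi1 and Mnt, followed Mxd1 and is a description with no test. It was -2.28 ± 0.37 with vehicle and -2.41 ± 0.18 with entinostat at day 10 (SD, n = 4). By day 17 it was -1.60 ± 0.51 with vehicle and -1.61 ± 0.33 with entinostat. The vehicle libraries of the 2 days overlapped, and the entinostat libraries did not (-2.61 to -2.20 against -1.94 to -1.16). Per kilobase of exon, Mxd1 made up 76.6% ± 1.63 and 80.9% ± 3.34 of the antagonists' summed level at day 10 with vehicle and entinostat, and 66.1% ± 5.07 and 71.2% ± 8.95 at day 17. The log2 ratio of Myc to Max, per kilobase, was 1.05 ± 0.29 and 1.28 ± 0.38 at day 10 and 1.43 ± 0.56 and 1.82 ± 0.35 at day 17, in the same order, and its groups overlapped between neighbouring values.

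**Figure D2:**
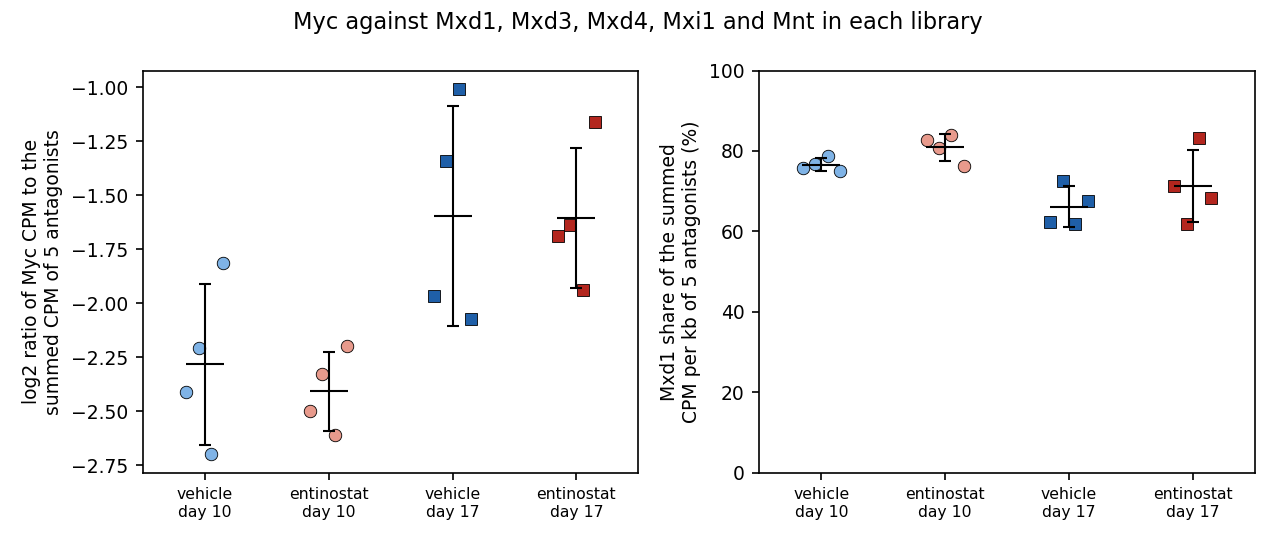
The left panel plots the log2 ratio of Myc CPM to the summed CPM of 5 antagonists and the right panel the share of Mxd1 in their summed CPM per kilobase (%), with 1 point a library and bars for mean and SD. The mean ratio is -2.28 and -2.41 at day 10 and -1.60 and -1.61 at day 17.

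Mnt, the antagonist found in most cell types, was lower with entinostat at day 17. It is on chromosome 11 (GRCm38 74830806 to 74845725, plus strand). It was at 63.8, 37.1, 58.7 and 37.7 CPM with vehicle and at 28.3, 33.9, 21.6 and 28.2 CPM with entinostat, so the 2 groups did not overlap. At day 10 it was at 51.9, 45.1, 56.9 and 42.1 CPM with vehicle and at 43.1, 45.6, 33.0 and 46.3 CPM with entinostat, and these groups overlapped. The day 17 difference was -0.79 ± 0.21 (95% interval -1.23 to -0.34, edgeR adjusted p = 0.0155) and the day 10 difference -0.22 ± 0.20 (edgeR adjusted p = 0.456). The difference between the days' drug effects was -0.57 ± 0.29 (edgeR adjusted p = 0.432), so the effects are not shown to differ. Over entinostat time Mnt changed by -0.55 ± 0.21 (edgeR adjusted p = 0.0942) and over vehicle time by 0.01 ± 0.20 (edgeR adjusted p = 0.970).

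Mlx, the partner that links MNT and MXD proteins to MondoA, was the other member lower with entinostat at day 17. It is on chromosome 11 (GRCm38 101086707 to 101092207, plus strand). It was at 111, 102, 87.5 and 72.4 CPM with vehicle and at 63.3, 75.7, 56.4 and 62.4 CPM with entinostat, so the highest entinostat library lay above the lowest vehicle library. The difference was -0.52 ± 0.16 (95% interval -0.84 to -0.19, edgeR adjusted p = 0.0292). At day 10 it was -0.23 ± 0.15 (edgeR adjusted p = 0.295), and the difference between days was -0.29 ± 0.22 (edgeR adjusted p = 0.618). Exons of Mlx share 385 bases, 19.4% of their length, with exons of Psmc3ip on the opposite strand, and the library kit does not mark strand. Psmc3ip differed by -0.03 ± 0.49 at day 17 (edgeR adjusted p = 0.977).

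With Mnt and Mlx, 2 of 9 members were lower with entinostat at day 17 and none was higher, against 13.0% lower and 5.29% higher among all genes tested. With 9 members, a count of 2 is near that background. Of all calls, 28.9% were higher, against 40.7% with RLE scaling, 48.2% with library size alone and 50.4% with cyclic loess. Among genes above the background of receptor reads the median day 17 difference was -0.21 with TMM scaling and -0.05 with library size alone. Depth moved with the members' levels in some groups more than in others, and its part was not tested. At day 17 the deepest library was highest for 7 of the 9 members with vehicle and for 6 with entinostat, and the shallowest was lowest for 3 and for 8. At day 10 the deepest was highest for 2 with vehicle and for 6 with entinostat, and the shallowest was lowest for 1 and for 3. The deepest vehicle library of day 17 was replicate 1, and the shallowest entinostat library was replicate 3. Without vehicle day 17 replicate 1 the difference was -0.60 for Mnt (edgeR adjusted p = 0.0788) and -0.39 for Mlx (edgeR adjusted p = 0.146). With log2 total count as a covariate, an alternative added after the data were seen, it was -0.52 for Mnt (edgeR adjusted p = 0.143) and -0.30 for Mlx (edgeR adjusted p = 0.244). Over its 29 alternatives the Mnt call held in 22, with adjusted p from 0.0104 to 0.143, and the Mlx call in 11, with adjusted p from 0.0110 to 0.258.

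**Figure D3:**
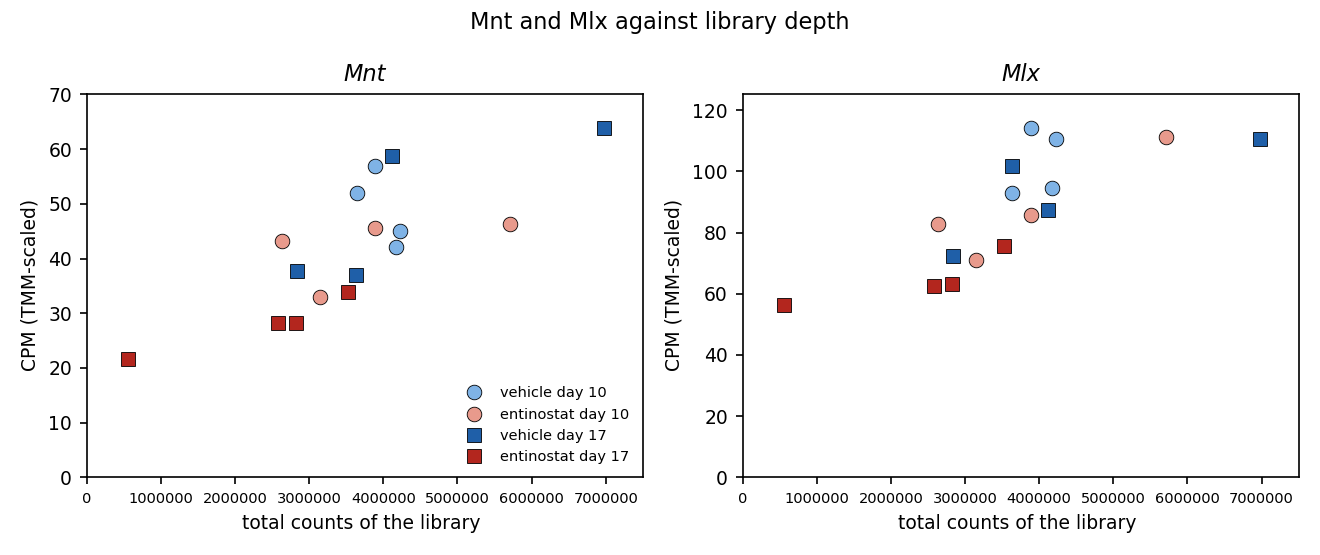
CPM of Mnt (left) and Mlx (right) is plotted against the total counts of the library, with 1 point a library in 4 groups. The library of 554593 counts has 21.6 CPM of Mnt and 56.4 CPM of Mlx, the lowest of its group for both, and the library of 6975904 has 63.8 and 111 CPM, the highest of its group for both.

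Mxd4, an antagonist of differentiated cells, was lower with entinostat at day 10 in every library, but missed the threshold. It was at 39.1, 48.5, 48.1 and 29.3 CPM with vehicle and at 14.9, 19.0, 20.4 and 28.4 CPM with entinostat. The lowest vehicle library lay just above the highest entinostat library. The difference was -0.99 ± 0.33 (95% interval -1.69 to -0.28, edgeR adjusted p = 0.0545). At day 17 it was at 34.0, 24.4, 25.7 and 30.5 CPM with vehicle and at 12.5, 32.3, 6.64 and 14.2 CPM with entinostat, a difference of -0.72 ± 0.34 (edgeR adjusted p = 0.151), and the groups overlapped through entinostat replicate 2. Without that library the day 17 difference was -1.24 (edgeR adjusted p = 0.0139). The day 17 difference passed the threshold in only 2 of 29 alternatives, this run among them, with adjusted p up to 0.645. The day 10 difference passed the threshold in 8 of 29 alternatives, DESeq2 among them (-0.94, adjusted p = 0.0223). Exons of Mxd4 share 514 bases, 13.2% of their length, with the antisense gene Gm42846.

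At day 10 no member passed edgeR's threshold in either direction, against 7.63% of all genes higher and 6.93% lower. At an unadjusted p under 0.05 there was 1, Mxd4, and DESeq2 called 1 and limma-voom with quality weights 3. Of all calls 52.4% were higher, against 76.0% with library size alone and 41.6% with cyclic loess. The difference of the drug effect between days was called for no member by edgeR, DESeq2 or limma-voom, with none at an unadjusted p under 0.05, against 0.218% of genes higher and 0.253% lower. Of those calls 46.3% were higher, against 58.5% with RLE scaling. Compared with TMM, library size alone raised the median difference of all genes tested from 0.06 to 0.22 at day 10 and from -0.01 to 0.14 at day 17, and from 0.13 to 0.27 over vehicle time.

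**Figure D4:**
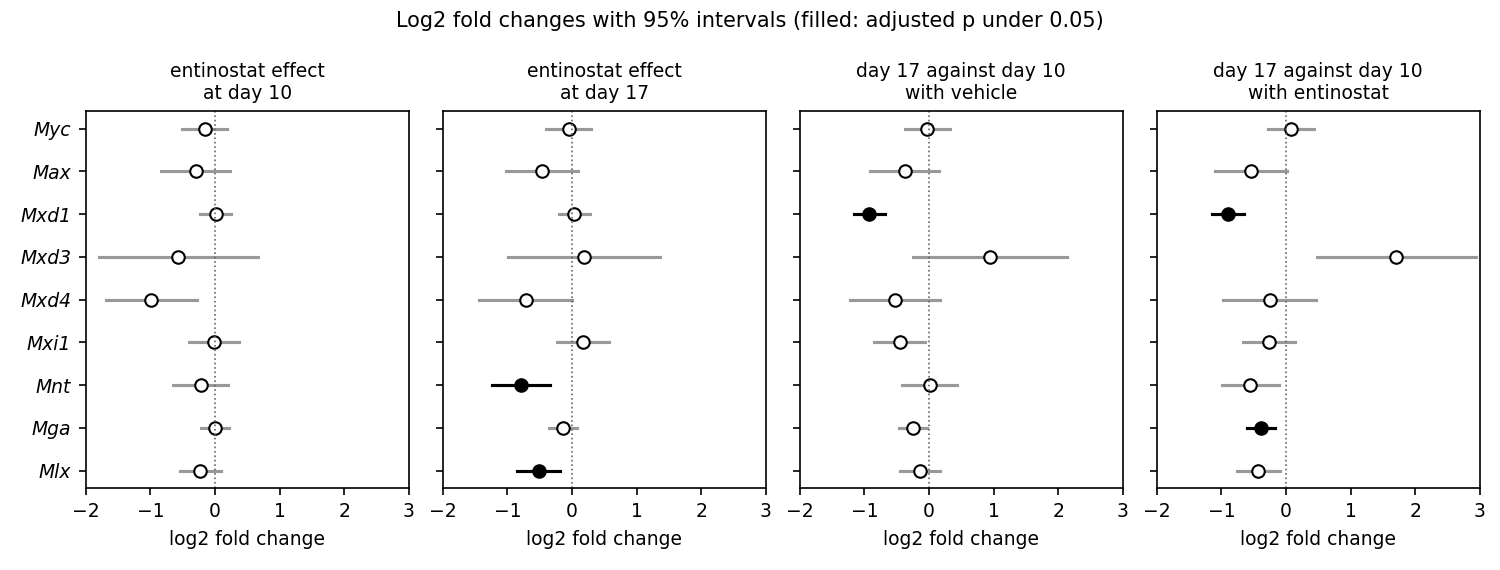
Log2 fold changes (points) with 95% intervals (lines) of the 9 genes in 4 comparisons, with filled points where the edgeR adjusted p was under 0.05. Filled points are Mnt and Mlx for entinostat at day 17, Mxd1 for time with vehicle, and Mxd1 and Mga for time with entinostat.

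Mga, the scaffold of PRC1.6, was the other member called lower with time under entinostat, where 10.5% of all genes were lower. It is on chromosome 2 (GRCm38 119872503 to 119970129, plus strand). It was at 218, 167, 199 and 174 CPM at day 10 and at 160, 138, 138 and 139 CPM at day 17, without overlap. The change was -0.39 ± 0.10 (95% interval -0.61 to -0.17, edgeR adjusted p = 0.0172). With vehicle it was at 198, 190, 174 and 194 CPM and then at 141, 156, 177 and 164 CPM, a change of -0.25 ± 0.10 (edgeR adjusted p = 0.140). The entinostat and vehicle changes differed by -0.14 ± 0.14 (edgeR adjusted p = 0.720), so they are not shown to differ. Drug differences of Mga were 0.00 ± 0.10 at day 10 (edgeR adjusted p = 0.991) and -0.14 ± 0.10 at day 17 (edgeR adjusted p = 0.355). The call over entinostat time held in 20 of 28 alternatives. It was lost with library size alone (-0.26, edgeR adjusted p = 0.125), with cyclic loess (-0.15, adjusted p = 0.528) and without entinostat day 10 replicate 1 (-0.33, edgeR adjusted p = 0.0558).

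Max, Mxi1 and Mxd3 passed edgeR's threshold in no comparison as fitted, and each was called under some alternative. Max, the shared partner, ranged from 28.2 to 78.6 CPM, and its drug and time differences were all below 0, from -0.30 ± 0.25 for the drug at day 10 to -0.54 ± 0.26 for entinostat time (edgeR adjusted p = 0.194). Limma-voom called it lower with the drug at day 10 (-0.60, adjusted p = 0.0137). Mxi1, an antagonist also known as Mxd2, ranged from 54.7 to 120 CPM, with drug differences of -0.02 ± 0.19 and 0.17 ± 0.19 and a change over vehicle time of -0.46 ± 0.19 (edgeR adjusted p = 0.141), which limma-voom called (-0.59, adjusted p = 0.0344). Mxd3, an antagonist tied to S phase, had means of 4.21 ± 2.13 and 2.81 ± 1.55 CPM at day 10 and 8.12 ± 3.83 and 8.82 ± 5.01 CPM at day 17 (SD, n = 4, vehicle then entinostat). Its change over entinostat time was 1.71 ± 0.59 (edgeR adjusted p = 0.0622), and entinostat day 17 replicate 3 had 1 count of it. Without that library the change was 1.96 (edgeR adjusted p = 0.0317). DESeq2 (1.81, adjusted p = 0.0149) and limma-voom (1.88, adjusted p = 0.0207) called it with all libraries, and it was called in 5 of 26 alternatives. Exons of Mxd3 share 105 bases, 7.91% of their length, with exons of Prelid1 on the opposite strand, which the kit does not tell apart.

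Across the 16 libraries the other members' log2 CPM correlated with that of Myc from -0.22 (Mxd1) to 0.34 (Mlx), a description over libraries that share depth and group. The 5 genes of 9495 whose log2 CPM was most like that of Myc were Smad5 (Pearson r 0.81), Ddb1 (0.80), Mybbp1a (0.79), Lman1 (0.78) and Mgat4b (0.77). The 3 most opposed were Braf (-0.79), Styx (-0.78) and Cspp1 (-0.71). The 5 and the 3 are the ends of 9495 values, and no p is given.

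Mycl, a paralogue of Myc outside the 9 members, was far lower with entinostat at both days. The gene, which encodes L-MYC and is known for its expression in dendritic cells, was at 56.5, 18.9, 48.1 and 61.7 CPM with vehicle and at 5.58, 1.03, 2.78 and 6.97 CPM with the drug at day 10. At day 17 it was at 46.2, 56.9, 73.3 and 30.5 CPM with vehicle and at 3.86, 8.08, 1.66 and 5.43 CPM with entinostat. All entinostat libraries lay below all vehicle libraries. The difference was -3.47 ± 0.50 at day 10 (edgeR adjusted p = 0.000567) and -3.28 ± 0.50 at day 17 (edgeR adjusted p = 0.000226), and both calls held in all 29 alternatives. The summed plasmacytoid dendritic cell markers moved with it, and their part was not tested. Within a group the match was uneven. At day 10 the entinostat libraries stood in the same order in both. Mycl was at 1.03, 2.78, 5.58 and 6.97 CPM there, with markers at 276, 367, 368 and 547 CPM. Vehicle day 10 replicate 2 was the lowest vehicle library in both Mycl and the markers (927 CPM). Vehicle day 17 replicate 4, next lowest in Mycl, had 2101 CPM of the markers, and entinostat day 17 replicate 2, highest of the entinostat libraries in Mycl, had the lowest marker sum of all (250 CPM).

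**Figure D5:**
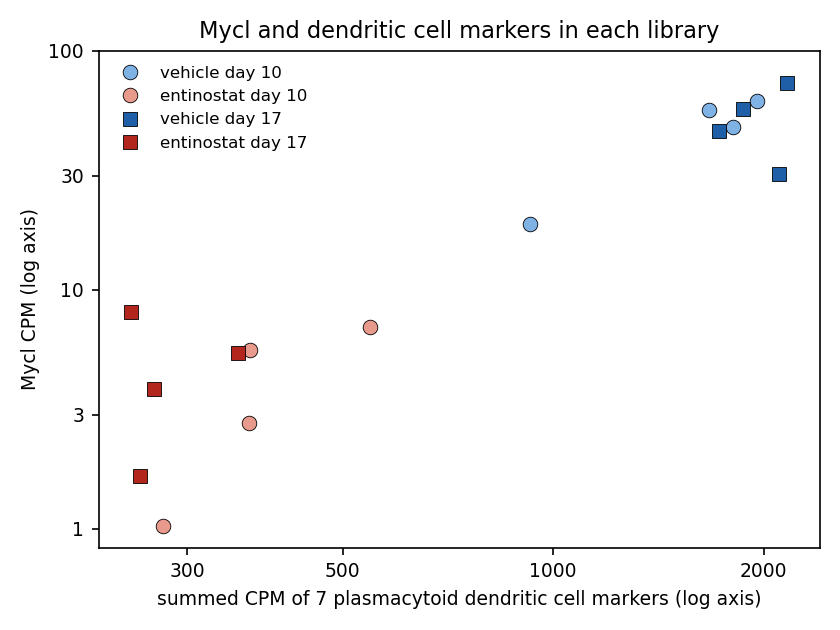
Mycl CPM is plotted against the summed CPM of 7 plasmacytoid dendritic cell markers, both on log axes, with 1 point a library. The 8 entinostat libraries lie at 1.03 to 8.08 CPM of Mycl and 250 to 547 CPM of the markers, and the 8 vehicle libraries at 18.9 to 73.3 and 927 to 2159 CPM.

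Of the 6 genes in this list of other MYC family, MondoA and ChREBP genes, entinostat lowered 2 and raised 1 at day 10 (median -0.54, against 0.06 over all genes tested) and lowered 2 at day 17 (median -0.24, against -0.01). Mycn (-2.39 ± 0.76, edgeR adjusted p = 0.0436) and Mlxipl (3.05 ± 0.83, edgeR adjusted p = 0.0239), the genes of N-MYC and ChREBP, were the others at day 10. They were named after their values were seen, and each averaged about 4 CPM, under the level of receptor reads. Among all genes, 6.93% were lower and 7.63% higher at day 10, and 13.0% were lower at day 17. Genes above the background level had medians of -0.16 and -0.21 at the 2 days, and the list's day 17 median is near the latter. Arrdc4, an arrestin-family gene and known target of MondoA with MLX, was at 54.3, 43.1, 45.0 and 46.3 CPM with vehicle and at 15.1, 20.7, 8.29 and 20.0 CPM under entinostat at day 17. The groups did not overlap, and the difference was -1.48 ± 0.26 (edgeR adjusted p = 0.000796), called in all 29 alternatives. At day 10 it was -0.73 ± 0.25 (edgeR adjusted p = 0.0577). Txnip, another MondoA target, differed by -0.35 ± 0.13 and -0.32 ± 0.13 (edgeR adjusted p = 0.0705 and 0.0883), and Mlxip, the gene of MondoA, by -0.16 ± 0.18 and -0.15 ± 0.18 (edgeR adjusted p = 0.552 and 0.588). EdgeR called no gene of this list with time in either treatment. At an unadjusted p under 0.05 there were 2 lower in each, and DESeq2 called none and limma-voom 1 lower in each.

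The SIN3 corepressor genes, through which MXD proteins and MNT repress, had 14 tested members. At day 10 entinostat lowered 2 (median -0.14, against 0.06 over all genes tested), where 6.93% of all genes were lower. At day 17 it lowered 4 and raised 2 (median -0.20, against -0.01), where 13.0% of all genes were lower and 5.29% higher. Genes above the background level had medians of -0.16 and -0.21 at the 2 days, so the list's medians are near that general shift. Arid4a, a SIN3-associated chromatin protein, was lower at both days (-0.52 ± 0.15, edgeR adjusted p = 0.0346, and -0.77 ± 0.16, edgeR adjusted p = 0.00288), calls held in 14 and 29 of 29 alternatives. Sap30, another subunit, was -0.97 ± 0.30 (edgeR adjusted p = 0.0405) at day 10, held in 11. At day 17 Arid4b (-0.48 ± 0.11) and Sap18 (-0.41 ± 0.11) fell while Hdac1 (0.39 ± 0.11, edgeR adjusted p = 0.0217) and the histone chaperone Rbbp4 (0.32 ± 0.09) rose, calls held in 24, 19, 27 and 27 of 29. Hdac2 differed by -0.14 ± 0.11 and 0.09 ± 0.11 and passed at neither day. Over vehicle time edgeR and DESeq2 called none of the 14, with 5 lower at an unadjusted p under 0.05 and 4 lower by limma-voom. Over entinostat time 4 fell, against 10.5% of all genes.

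Chromatin cofactors of MYC, 12 genes, had 2 lower with entinostat at day 10 (median -0.20) and 3 at day 17 (median -0.21). All genes tested had 6.93% and 13.0% lower, and genes above the background level had medians of -0.16 and -0.21, so the list's medians are near that general shift. None was higher at either day by edgeR, DESeq2 or limma-voom, or at an unadjusted p under 0.05. Kat2a, the acetyltransferase GCN5, was lower at both days, from 108 ± 2.83 to 76.9 ± 8.35 CPM at day 10 (SD, n = 4; -0.48 ± 0.11, edgeR adjusted p = 0.00994) and from 98.8 ± 10.3 to 75.6 ± 6.45 CPM at day 17 (-0.37 ± 0.11, edgeR adjusted p = 0.0256), calls held in 27 and 15 of 29 alternatives. Hcfc1 was the other at day 10 (-0.43 ± 0.11, held in 21), and the acetyltransferase Kat5 (-0.58 ± 0.18, held in 10) and its scaffold Trrap (-0.40 ± 0.13, held in 8) were the others at day 17. Over vehicle time edgeR called none, with 2 lower at an unadjusted p under 0.05, 1 by DESeq2 and 2 by limma-voom. Over entinostat time 3 of the 12 fell, against 10.5% of all genes. In the PRC1.6 list, which holds 12 genes besides Mga, edgeR and DESeq2 called none at day 10, with none at an unadjusted p under 0.05, and limma-voom called 1 higher and 2 lower. At day 17, where 13.0% of all genes were lower, 2 were lower, Ehmt1 (-0.44 ± 0.13) and Rnf2 (-0.41 ± 0.14), calls held in 10 and 3 of 29 alternatives. Over vehicle time edgeR called none of the PRC1.6 list, with 3 lower at an unadjusted p under 0.05 and 1 lower by DESeq2 and by limma-voom. Over entinostat time 1 rose and 2 fell, against 3.26% and 10.5% of all genes.

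Of 12 genes that govern MYC protein stability, edgeR and DESeq2 called none at day 10, while 2 were lower at an unadjusted p under 0.05 and 2 by limma-voom (Gsk3a and Gsk3b, adjusted p = 0.0118 and 0.00969). At day 17 there were 2 lower of 12, near the 13.0% of all genes. Gsk3b, the kinase that phosphorylates MYC ahead of its recognition, went from 171 ± 28.8 to 107 ± 7.93 CPM (SD, n = 4; -0.67 ± 0.12, edgeR adjusted p = 0.000706), a call held in all 29 alternatives. Fbxw7, the ubiquitin ligase subunit that recognises it, differed by -0.49 ± 0.15 (edgeR adjusted p = 0.0267), a call held in 16 of 29. Over vehicle time edgeR called none of the 12, with 2 lower at an unadjusted p under 0.05 and 1 lower by DESeq2 and by limma-voom. Over entinostat time 4 fell, against 10.5% of all genes. These counts say nothing of MYC protein, which was not measured.

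Genes that MYC is known to activate were lower with entinostat at day 10 in part. Of 25 genes of metabolism, nutrient uptake and growth, 8 were lower and none higher (median -0.32, against 0.06 over all genes tested), where 6.93% of all genes were lower. None was higher by DESeq2 or limma-voom, or at an unadjusted p under 0.05, in this list or the next. The mitochondrial chaperone Hspd1 (-0.41 ± 0.10, edgeR adjusted p = 0.0117), the amino acid transporter subunit Slc3a2 (-0.34 ± 0.08), the glucose transporter Slc2a1 (-0.42 ± 0.12) and the cyclin Ccnd2 (-0.36 ± 0.11) were among them. Of 26 ribosome biogenesis genes, 4 were lower and none higher (median -0.24): Rrp12 (-0.72 ± 0.20), Ppan (-0.45 ± 0.13), Gnl3 (-0.41 ± 0.13) and Bop1 (-0.35 ± 0.11). The counts depended on the setting: the median of genes above the receptor background was itself -0.16 at day 10 with TMM scaling, and of 29 alternatives Hspd1 was called in 25, Slc3a2 in 21, Rrp12 in 16, Slc2a1 in 12, Ppan in 11, Ccnd2 in 9, Bop1 in 4 and Gnl3 in 2.

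At day 17 the same metabolic list had 2 higher and 3 lower (median 0.04, against -0.01). Ccnd2 (-0.53 ± 0.11, edgeR adjusted p = 0.00307) and Slc2a1 (-0.43 ± 0.12, edgeR adjusted p = 0.0212) were again lower, with the nucleotide synthesis enzyme Prps2 (-0.73 ± 0.14), calls held in 29, 16 and 29 of 29 alternatives. The glutamine transporter Slc1a5 (0.36 ± 0.10) and lactate dehydrogenase Ldha (0.68 ± 0.22), the latter named after its value was seen, were higher. Ribosome biogenesis had 3 lower, Nop2 (-0.47 ± 0.15), Rrp9 (-0.54 ± 0.17) and Gnl3 (-0.41 ± 0.14), of 26 (median -0.09), under the 13.0% lower among all genes, and these calls held in 8, 10 and 5 of 29 alternatives. EdgeR and limma-voom called none higher, with none at an unadjusted p under 0.05, and DESeq2 called 1. Over time, 3 of the 25 metabolic genes fell with vehicle, against 3.63% of all genes. With entinostat 5 rose and 4 fell, against 3.26% and 10.5% of all genes. EdgeR and DESeq2 called no ribosome biogenesis gene in either treatment. At an unadjusted p under 0.05, 3 of these were lower with vehicle and none changed with entinostat, and limma-voom called 1 lower with vehicle and none with entinostat.

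EdgeR called a difference of the drug effect between days for 2 of the 25 metabolic genes, Hspd1 and Slc1a5, both above 0. Among all genes tested 0.218% were higher and 0.253% lower. It called none of the 26 ribosome biogenesis genes, with 4 higher at an unadjusted p under 0.05. Hspd1 was at 187 ± 10.9 CPM in vehicle and 141 ± 16.5 CPM in entinostat libraries of day 10, and at 170 ± 10.2 and 202 ± 15.98 CPM at day 17 (SD, n = 4). Its difference between days was 0.65 ± 0.16 (edgeR adjusted p = 0.0428). Slc1a5 was at 253 ± 17.9 and 202 ± 14.5 CPM at day 10 and at 185 ± 12.6 and 237 ± 30.6 CPM at day 17, with a difference between days of 0.68 ± 0.17 (edgeR adjusted p = 0.0423). Each of these 2 calls held in 13 of 28 alternatives, with adjusted p up to 0.112 for Hspd1 and 0.0997 for Slc1a5.

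A list of 7 genes held growth arrest genes that MYC is known to repress, and Zbtb17, a partner in that repression. EdgeR called none of the 7 at day 10 (median 0.44, against 0.06 over all genes tested). There, 2 were higher at an unadjusted p under 0.05 and 1 was higher by DESeq2 and by limma-voom. Ndrg2, a differentiation-linked gene, missed the threshold there (0.98, edgeR adjusted p = 0.0547) and was called in 12 of 29 alternatives. At day 17, 3 were lower, with Zbtb17 among them, where 13.0% of all genes were lower. The list's median was -0.61, the value of Zbtb17 itself, against -0.01 over all genes tested. Cdkn1b, the cell cycle inhibitor p27, went from 91.6 ± 20.4 to 38.0 ± 16.7 CPM at day 17 (SD, n = 4; -1.16 ± 0.24, edgeR adjusted p = 0.00230). Gadd45a, a stress response gene, went from 33.8 ± 10.0 to 13.5 ± 4.73 CPM (-1.30 ± 0.29, edgeR adjusted p = 0.00457), and both calls held in all 29 alternatives. Zbtb17, the gene of MIZ1, a partner through which MYC represses, differed by -0.61 ± 0.19 (edgeR adjusted p = 0.0370), a call held in 9 of 29. Cdkn1a, the inhibitor p21, differed by 0.44 ± 0.20 and 0.39 ± 0.21 (edgeR adjusted p = 0.139 and 0.204). Over time 1 of the 7 rose with vehicle, against 1.89% of all genes. With entinostat 1 rose and 2 fell, against 3.26% and 10.5% of all genes. Mki67 was higher with entinostat at day 17 (0.60 ± 0.20, edgeR adjusted p = 0.0482), a call held in 17 of 29 alternatives.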

How the data were processed

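The authors deposited whole-number exon counts per gene, with no scaling, for 16 libraries and 24028 genes. STAR and mm10 are named per the submitters' processing notes, while what counted the reads, with which annotation and with or without duplicates, was not stated in the sources at hand. Per the labels' protocols, SMART-seq v4 cDNA was tagmented with Nextera XT, which marks neither strand nor single molecules, so precision follows counting error at best. Symbols missing from the table (30) came from a GRCm38 reference table. Libraries of 1 group differed from each other by more than counting noise (a chi-square of at least 3.28 times its degrees of freedom), so none was taken as a repeat deposit.

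Groups, days and replicate numbers came from the labels. Genes were kept by filterByExpr (minimum count 10), scaled by TMM and tested with edgeR 4.0.16 in R 4.3.3 by its quasi-likelihood test, with a mean per group over all 16 libraries and Benjamini-Hochberg adjustment over all genes at 0.05. Errors of log2 changes are SE. The script was tested on simulated data. Alternatives were DESeq2 1.42.0, limma 3.58.1 with voom, other scalings and filters, covariates, the replicate block and leaving out each library. Exon lengths and overlaps came from GENCODE M21 on GRCm38, and promoter windows from RefSeq.

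All 9 members are named. From each of 8 pathway lists, up to 4 genes of smallest p in each entinostat comparison with at least 16 CPM on average are named, and Hdac1, Hdac2, Mki67, Cdkn1a, Cd8a and Cd4 are fixed. For Myc the 5 most and 3 least similar genes are named. The members, the lists and this rule were chosen with earlier results of these data known.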

Additional observations from a re-analysis of the deposited data

Results flagged for a closer look

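Mga in entinostat day 17 replicate 1 was at 160.4 CPM, and the nearest of the other 3 libraries of that group was at 139.1 CPM, a gap of 0.939 of the group's range. Chance sets a library apart in this way in about 1 of 20 groups. Without this library the change of Mga over entinostat time was -0.48 (edgeR adjusted p = 0.0120).

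The drug effect on Hspd1 differed between days by 0.65 on the log2 scale and that on Slc1a5 by 0.68, both by the test of the difference itself. Each call held in 13 of 28 alternatives, with adjusted p up to 0.112 for Hspd1 and 0.0997 for Slc1a5.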

How the results depend on the processing

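The falls of Mxd1 with time kept their direction and call in every alternative run. Of 1268 values of the members under alternatives, 1214 stayed on their side of the threshold, 33 lost a call and 21 gained one. The 93 changes of sign all concerned values that were called neither before nor after. In the main fit these values were at most 0.27 in size, but some were larger under an alternative. The drug difference of Mxd3 at day 17 went from 0.19 to -0.62 with cyclic loess.

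Members called numbered 0 for entinostat at day 10, and 1 with DESeq2, cyclic loess, the compared groups alone or log2 total count as a covariate (chosen after seeing the data), and 3 with limma-voom. At day 17 there were 2, and 1 with DESeq2, RLE scaling, library size alone, a minimum count of 50 or genes above background, and 0 with cyclic loess, the compared groups alone, the replicate block within each day or the log2 total count. Over vehicle time there was 1, and 2 with limma-voom. Over entinostat time there were 2, and 1 with RLE scaling, library size alone, cyclic loess, a minimum count of 50, genes above background or the compared groups alone. Leaving out 1 library in turn gave 0 to 1 members at day 10, 0 to 3 at day 17, 1 over vehicle time, 1 to 3 over entinostat time and 0 for the difference between days.

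All genes called at day 10 numbered 2534, and 6746 with limma-voom, 770 with cyclic loess, 1332 at a minimum count of 50, 1055 above background, 1458 in the compared groups alone, 1561 with the replicate block and 1160 with that block within each day. At day 17 they numbered 3190, and 4899 with limma-voom and 1643 with the log2 total count. Over vehicle time they numbered 961, and 2158 with DESeq2, 2804 with limma-voom, 490 with library size alone, 216 with cyclic loess, 589 above background, 636 in the compared groups alone and 1826 with the log2 total count. Over entinostat time they numbered 2393, and 3934 with limma-voom. For the difference between days they numbered 82, and 563 with DESeq2, 244 with limma-voom, 130 with RLE scaling, 144 with library size alone, 138 with cyclic loess, 34 with no filter, 285 at a minimum count of 50, 313 above background, 39 with the replicate block, 34 with that block within each day and 179 with receptor reads as a covariate. Leaving out 1 library gave 910 to 4151 at day 10, 1946 to 3658 at day 17, 212 to 2699 over vehicle time, 1748 to 2826 over entinostat time and 14 to 103 for the difference. Fewer genes were tested under the stricter filters, and the cause of the other shifts was not tested.

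The Myc balance over time stayed above 0 without any 1 library, from 0.49 to 0.84 with vehicle and from 0.65 to 0.91 with entinostat. Its drug differences ran from -0.26 to 0.03 at day 10 and from -0.17 to 0.19 at day 17. Ratios per kilobase were chosen after seeing the data and moved these by less than the SD.

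Whether equal replicate numbers pair the libraries is not stated in the labels. Between vehicle and entinostat at day 10, their deviations from the group means correlated at 0.18, 0.03, 0.11 and 0.06 over all genes tested and at 0.25, 0.23, 0.21 and 0.23 over genes above background, a check chosen after seeing the data. At day 17 they correlated at 0.06, -0.32, 0.04 and 0.05 over all genes tested and at 0.15, -0.39, 0.13 and -0.06 over genes above background. The numbers were not taken as pairs. With the replicate block Mxd4 at day 10 stayed uncalled (-0.99, adjusted p = 0.0818), and only the block within each day ended the calls of Mnt (-0.74, adjusted p = 0.0633) and Mlx (-0.52, adjusted p = 0.0505) at day 17.

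Depth limits Mxd3 and Mxd4 most, at 1 and 4 counts in their lowest library.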
